A study of Rattus norvegicus with 50 samples.

Results

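The effect of obesity on the kidney medulla was measured in 10 of the 50 libraries of a study in ZSF1 rats. These were the 5 libraries of lean rats given vehicle and the 5 of obese rats given vehicle, chosen by the tissue, genotype and treatment in their titles and not by any measured value. Each library was made from total RNA of frozen kidney after removal of ribosomal RNA. The remaining libraries came from the cortex of the same 2 vehicle groups and from cortex and medulla of obese rats treated with enalapril, which blocks angiotensin-converting enzyme, or with MK-8722, which activates AMP-activated protein kinase. Enalapril was given at 10 mpk and MK-8722 at 1 mpk or at 10 mpk. Treatment lasted 28 weeks in every group by the labels, which also state an age of 20 weeks without saying to which time point the age belongs. They give neither the sex nor the composition of the vehicle, and they do not tie libraries to animals, so the p-values below rest on the spread among libraries, whatever its source.

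The ZSF1 rat is a hybrid of a diabetic fatty line and a hypertensive line prone to heart failure. Obese animals carry mutated leptin receptor genes on both chromosomes, overeat and develop diabetes and progressive kidney disease, whereas lean animals of the cross keep a working leptin receptor and serve as controls. Lean controls share the hypertensive background, so the comparison is between 2 genotypes of 1 hybrid and not with a healthy inbred strain. The medulla holds the loops of Henle, the collecting ducts, the vasa recta and the interstitial cells between them. It builds the salt and urea gradient that concentrates the urine, works at low oxygen, and is filled in diabetes with fluid carrying glucose that the proximal tubule did not recover.

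Values are FPKM, fragments scaled to transcript length and to the mapped fragments of a library, for 32545 Ensembl gene IDs. The table pairs its IDs with no names, and 0 of them matched the reference gene table, so genes appear by ID, their functions are not stated, and the tissue label could not be checked against marker genes. As a check that needs no names, libraries were correlated on log2(FPKM + 0.5). Lean medulla libraries correlated with each other at r of at least 0.979, and with lean cortex libraries at 0.962 at most. In obese rats the corresponding values were 0.957 and 0.952. Each medulla library was thus closer to its own tissue in the same genotype, though by a small margin in obese rats. No 2 of the 10 libraries held identical values.

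Lean and obese libraries differed in more than single genes. The 6 most abundant IDs held 60.1% to 63.4% of the summed FPKM in lean and 52.3% to 55.2% in obese libraries, and the ranges did not overlap. Relative depth, read from the steps between low values, was 0.992 to 1.18 in lean and 0.599 to 0.815 in obese libraries, again without overlap. An FPKM of at least 1 was reached by 12412 to 12622 IDs in lean libraries and by 13480 to 13977 in obese ones, so more IDs reached that level in the group with less depth. Because these ranges do not overlap, depth and genotype cannot be told apart in the 10 libraries.

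The obese medulla differed from the lean medulla in a large share of its genes. Genes that reached 1 FPKM in 5 or more of the 10 libraries were compared with limma on log2(FPKM + 0.5), and a call had a Benjamini-Hochberg adjusted p under 0.05 over all 13311 of them. On the deposited values 7843 genes (58.9%) were called higher and 1610 (12.1%) lower in obese rats. Over all genes the log2 fold change had a median of 0.36, so the whole distribution was displaced upwards. Each library was therefore also divided by its median ratio to the geometric mean of the genes, which brought that median to 0.01. The factors were 0.840 to 0.917 in lean and 1.11 to 1.2 in obese libraries. On the rescaled values 3696 genes (27.8%) were called higher and 3774 (28.4%) lower.

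**Figure D1:**
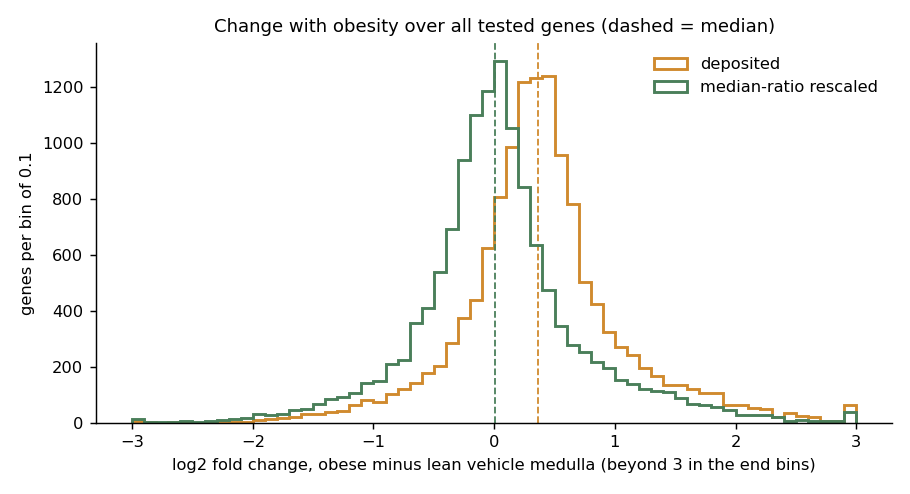
Number of genes (y axis, per bin of 0.1) by log2 fold change of obese against lean vehicle medulla (x axis, on the log2(FPKM + 0.5) scale), for deposited and median-ratio rescaled values, with the medians as dashed lines. The 2 distributions have a like shape and lie apart by the difference of their medians, 0.36 and 0.01.

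The balance of rises and falls thus depended on the scale, and 2 other scalings gave values in between. Dividing by the upper quartile gave 4470 higher and 3040 lower genes, and scaling to the sum without the 6 most abundant IDs gave 5983 and 2209. The median log2 fold change was 0.09 and 0.22 under these scalings. All 6 of the most abundant IDs were called lower on the rescaled values and 3 of them on the deposited ones. Of the deposited rises, 3992 were not called after rescaling and 155 were called lower. In what follows, a gene "rose" or "fell" only if it was called in that direction on both scales. This left 3696 genes that rose (27.8%) and 1610 that fell (12.1%), or 5306 (39.9%) in all. For 55.4% of the tested genes, called or not, the lean and obese libraries did not overlap in deposited values, and for 43.1% in rescaled values. When relative depth was added to the fit, 548 genes were called higher and 92 lower on both scales. The measurements are of bulk tissue, where fewer cells of a type and less RNA per cell cannot be told apart.

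Most changes were smaller than 2-fold on the rescaled values, but 1859 of the 3696 rises reached 2-fold on the deposited ones. The median rescaled log2 fold change was 0.66 among genes that rose, with 0.28 to 1.66 between the 10th and 90th percentiles, and -0.94 among genes that fell, with -1.73 to -0.63. A rescaled change of at least 2-fold was measured in 1131 genes that rose and 725 that fell, of at least 4-fold in 179 and 80, of at least 8-fold in 29 and 13, and of at least 16-fold in 10 and 3. On the deposited values the median was 1.00 among genes that rose and -0.58 among genes that fell. A deposited change of at least 2-fold was measured in 1859 and 372 genes, and of at least 4-fold in 351 and 34. Because a fall had to pass on the deposited values too, where all genes lay higher, small falls are missing from this list. The median standard error of a log2 fold change was 0.10 on the rescaled values.

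The share of genes that fell was higher among abundant genes than among scarce ones. It was 38.9% of the 509 genes with a mean FPKM of 100 or more over the 10 libraries, 25.4% of 1506 genes at 30 to 100, and 7.26% of 4809 genes at 3 to 10. The share that rose was 32.0%, 23.2% and 29.3% in the same classes. Precision differed too, with a median rescaled standard error of 0.093, 0.077 and 0.110 in these classes. A fall of a given size was thus easier to call among abundant genes, and the part of precision in the shares was not tested. The median rescaled log2 fold change went from 0.18 among 2456 genes at 1 to 3 FPKM to -0.25 among genes at 100 or more. A further 126 genes had a mean under 1. They passed the filter because at least 5 libraries reached 1 FPKM while the others lay lower, so that class was selected for unequal libraries and nothing is read from its shares.

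**Figure D2:**
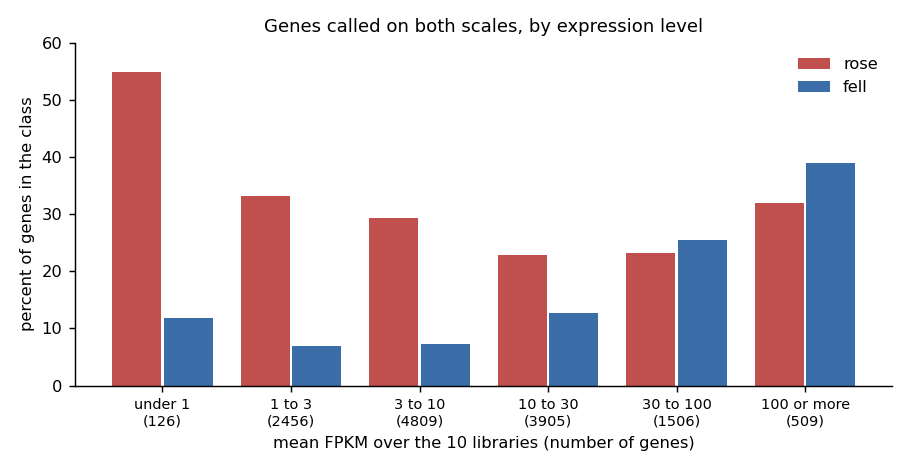
Percent of genes (y axis) that rose or fell in obese medulla on both scales, by class of mean FPKM over the 10 libraries (x axis, number of genes in brackets). The share that fell is highest, at 38.9%, among genes with a mean FPKM of 100 or more.

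The filter itself was met unevenly by the groups. All 10 libraries reached an FPKM of 1 for 11536 genes. Another 422 genes reached it in all 5 obese and in no lean library, and 29 in all 5 lean and in no obese library. Genes that pass in this way had to differ, and they are part of the counts above. At the edge of the filter, 580 genes reached an FPKM of 1 in exactly 5 libraries and were tested, with a median mean of 1.21 FPKM. A further 306 reached it in exactly 4 and were left out, with a median of 0.915 FPKM.

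The IDs described here are the 2 largest rises and 2 largest falls among genes called on both scales, with separate groups and a higher group that averaged 2 FPKM or more. The same libraries served to choose them, so separate groups and small p-values were fixed by the choice. Their p-values, also those of refits on these libraries, are given as a description and are no support. ENSRNOG00000048402 was at 0.856, 0.269, 0.368, 0.559 and 0.364 FPKM in lean replicates 1, 3, 5, 6 and 7. In obese replicates 3, 4, 5, 6 and 7 it was at 21.7, 134, 10.7, 31.7 and 126 FPKM. Every obese library lay above every lean one, and within the obese group replicates 4 and 7 stood far above the other 3. The means were 0.483 ± 0.234 and 64.8 ± 59.98 FPKM (SD, n = 5), and the log2 fold change was 5.46 ± 0.69 (SE, limma adjusted p = 0.000112), or 5.17 after rescaling. This ID passed the filter only through the obese libraries and was chosen for the size of its rise, so its p-values are no support. When depth was added to the fit, its log2 fold change was 2.60 (adjusted p = 0.355), or 2.36 on the rescaled values (adjusted p = 0.425), whereas in the 12 other settings that could test it the adjusted p was 0.00599 at most.

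ENSRNOG00000013973 was at 3.86, 3.74, 3.11, 1.68 and 2.56 FPKM in lean replicates 1, 3, 5, 6 and 7. It was at 86.3, 118, 87.8, 108 and 172 FPKM in obese replicates 3, 4, 5, 6 and 7. The lowest obese library was far above the highest lean one, and replicate 7 was the highest of the obese ones. The mean rose from 2.99 ± 0.898 to 115 ± 35.1 FPKM (SD, n = 5), a ratio of means of 38.3. The log2 fold change was 5.04 ± 0.23 (SE, limma adjusted p = 3.01e-08), and over 19 alternative settings it ranged from 3.64 to 5.22 with an adjusted p of 0.00523 at most.

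ENSRNOG00000019481 was at 22.95, 33.8, 25.6, 32.6 and 22.4 FPKM in lean replicates 1, 3, 5, 6 and 7. In obese replicates 3, 4, 5, 6 and 7 it was at 1.05, 0.555, 2.12, 0.222 and 0.0900 FPKM. The groups were separated by a wide gap, and the obese libraries themselves differed widely, with replicate 5 highest and replicate 7 lowest. The mean fell from 27.5 ± 5.39 to 0.808 ± 0.821 FPKM (SD, n = 5). The log2 fold change was -4.61 ± 0.37 (SE, limma adjusted p = 2.59e-06). When depth was added to the fit, it was -2.61 (adjusted p = 0.0566), and in the 18 other settings the adjusted p was 0.0429 at most.

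ENSRNOG00000002602 was at 24.96, 25.6, 23.4, 23.2 and 22.03 FPKM in lean replicates 1, 3, 5, 6 and 7. It was at 1.77, 0.818, 1.40, 1.13 and 0.212 FPKM in obese replicates 3, 4, 5, 6 and 7. The lean libraries were nearly equal, and replicate 7 was again the lowest of the obese ones. The mean fell from 23.8 ± 1.45 to 1.07 ± 0.593 FPKM (SD, n = 5), with a log2 fold change of -4.06 ± 0.26 (SE, limma adjusted p = 1.41e-07) and an adjusted p of 0.0142 at most over 19 alternative settings.

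**Figure D3:**
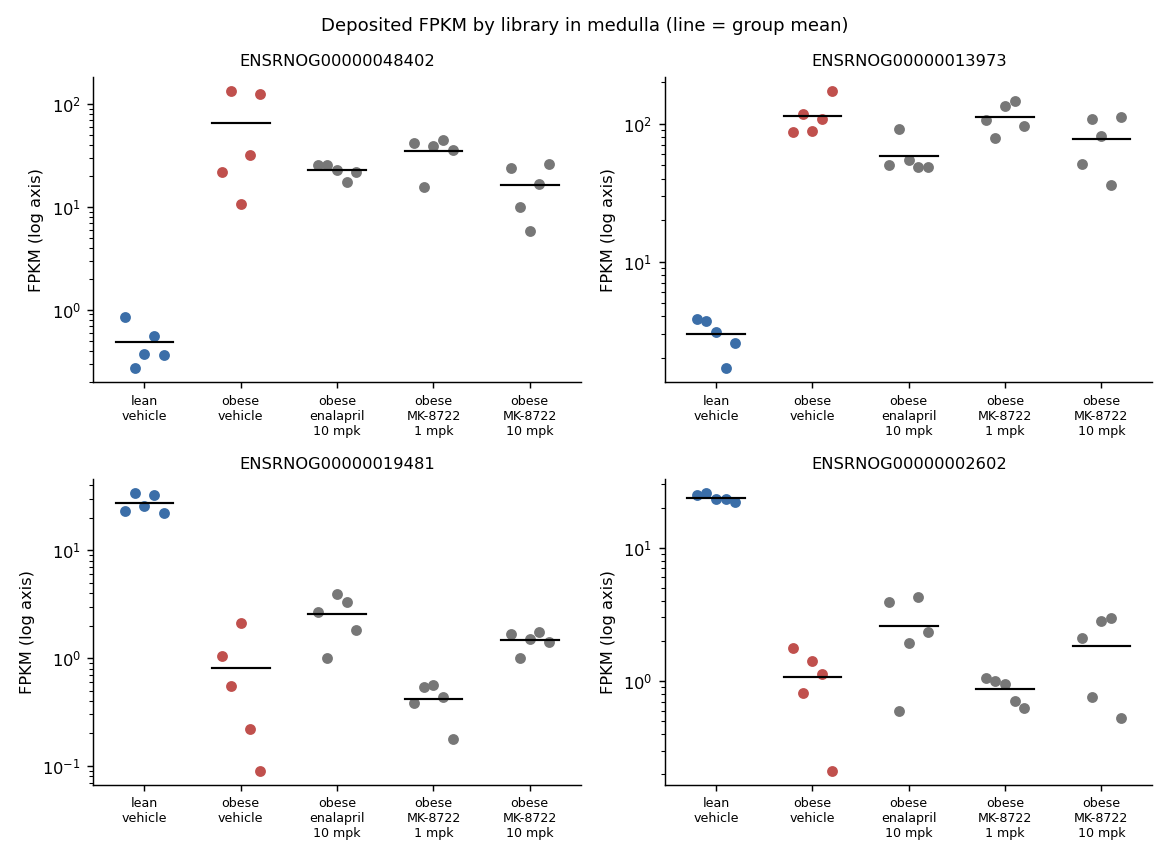
Deposited FPKM (y axis, log scale) of 4 gene IDs in each of the 5 medulla groups (x axis), 1 point per library and a line at the group mean. The lean libraries stand apart from all obese groups in each panel, also from the obese groups given enalapril or MK-8722.

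In medulla of obese rats given a drug, the same 4 IDs also lay far from the lean level. ENSRNOG00000013973 was at 58.7 ± 18.8 FPKM with enalapril at 10 mpk, 112 ± 27.6 with MK-8722 at 1 mpk and 77.6 ± 33.4 with MK-8722 at 10 mpk (SD, n = 5 each). For ENSRNOG00000048402 the means were 22.6 ± 3.32, 35.3 ± 11.4 and 16.4 ± 8.57 FPKM (SD, n = 5 each). Its 2 high values in obese vehicle, 134 and 126 FPKM, had no counterpart in the drug groups, where the highest library was at 44.3 FPKM. ENSRNOG00000019481 was at 2.56 ± 1.18, 0.419 ± 0.154 and 1.46 ± 0.290 FPKM, and ENSRNOG00000002602 at 2.61 ± 1.5, 0.866 ± 0.187 and 1.85 ± 1.15 FPKM (SD, n = 5 each). The IDs were chosen for extreme values in obese vehicle, so these levels are given as a description.

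At the far end of the rises were IDs with almost no signal in lean medulla. There were 8 IDs with an FPKM under 0.1 in every lean library and of at least 1 in every obese library, and 0 IDs with the opposite pattern. Their choice by these same libraries, and their passing the filter only through the obese ones, fixed that all 8 were called. Their means in obese medulla were 1.52 to 10.04 FPKM, with a median of 4.20. In the cortex libraries, which took no part in choosing them, 5 of the 8 were also under 0.1 FPKM in every lean library. In every obese cortex library, 1 FPKM was reached by 3 of the 8 and by 0 of these 5. All 8 were higher in obese than in lean cortex on the rescaled values, 6 of them by at least 2-fold. Over all 13821 genes tested with cortex, 6415 were higher, 1006 of them by at least 2-fold.

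Obese libraries were not equally far from lean ones. Each library was left out in turn, genes were called on both scales from the other 9, and the left-out library was placed for each gene on a line from the lean mean (0) to the obese mean (1) of the others. Lean libraries had median positions of -0.03 to 0.09 over the genes that rose and of -0.05 to 0.06 over those that fell. Obese libraries had 0.81 to 1.19 and 0.73 to 1.37. In every obese library, 80.8% to 93.5% of genes that rose and 91.4% to 99.2% of genes that fell lay nearer to the obese than to the lean mean, against 6.98% to 13.5% and 1.23% to 4% in lean libraries.

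Obese replicate 7 lay farthest from lean, at 1.19 for rises and 1.37 for falls, and obese replicate 5 nearest, at 0.81 and 0.73. Replicate 7 also had the lowest relative depth of the group, 0.599, and replicate 5 the highest, 0.815. The part of depth in these positions was not tested. The most distant and nearest library were the same for rises and falls.

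**Figure D4:**
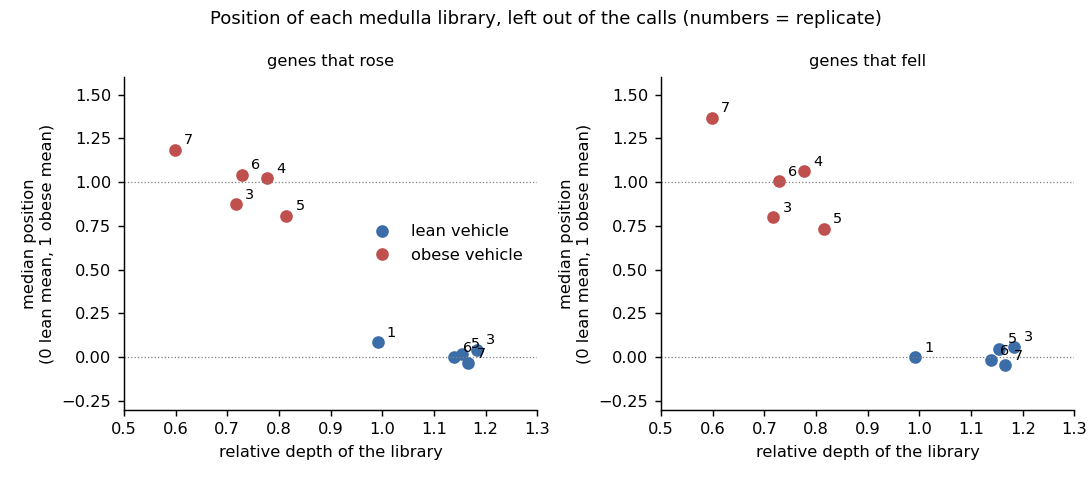
Median position of each left-out medulla library between the lean mean (0) and the obese mean (1) of the other libraries (y axis) against its relative depth (x axis), for genes that rose and genes that fell, with replicate numbers. Lean libraries lie near 0, and obese libraries spread from 0.81 to 1.19 for rises and from 0.73 to 1.37 for falls.

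The spread among obese libraries was most marked in the genes that fell. On rescaled log2 values the median SD of a gene was 0.128 in lean and 0.224 in obese libraries for these genes, and 78.3% of them had the higher SD in obese libraries. For genes that rose, the median SD was 0.166 in both groups, and 48.4% had the higher SD in obese libraries. The 2 sets are not alike, with median rescaled log2 fold changes of -0.94 for falls and 0.66 for rises. Their median levels were 19.6 and 6.83 FPKM, and the part of these differences in the spread was not tested. Over all 5920 genes with a mean FPKM of 10 or more, the median SD was 0.119 in lean and 0.129 in obese libraries. In obese libraries it was 0.114 without replicate 7 and 0.119 without replicate 5. Correlations between libraries over all tested genes were 0.979 to 0.984 among lean and 0.959 to 0.980 among obese pairs, and 0.859 to 0.933 between the groups.

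Whether the medulla changed differently from the cortex was tested as the interaction of tissue with genotype over the 20 vehicle libraries of both tissues. Among 13821 genes, 353 (2.55%) had a change called more positive in medulla and 492 (3.56%) one called more negative. After rescaling the counts were 406 (2.94%) and 736 (5.33%). On both scales 317 (2.29%) were more positive and 465 (3.36%) more negative in medulla. The median difference over all genes was 0.03 as deposited and -0.01 rescaled, so rescaling moved it little.

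The change with obesity had the same sign in both tissues in 565 (72.3%) of the 782 genes after rescaling, beside 81.6% of all tested genes, and in 553 (70.7%) on the deposited values, beside 87.4%. That difference in shares was not tested. After rescaling, 361 genes were lower in both tissues and more so in medulla, and 164 were higher in both and more so in medulla. On the deposited values these counts were 249 and 255. Genes higher in medulla and lower in cortex numbered 133 rescaled and 55 deposited, and genes lower in medulla and higher in cortex 84 and 174, so which of these was the larger group depended on the scale. With the same sign, a larger change in cortex was measured for 20 higher and 20 lower genes rescaled, and for 42 and 7 deposited. Of all 5306 genes called in medulla on both scales, 657 (12.4%) also had a tissue difference called on both scales, beside 5.66% of all genes tested for it. These tests share the medulla libraries, so that share is a description.

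**Figure D5:**
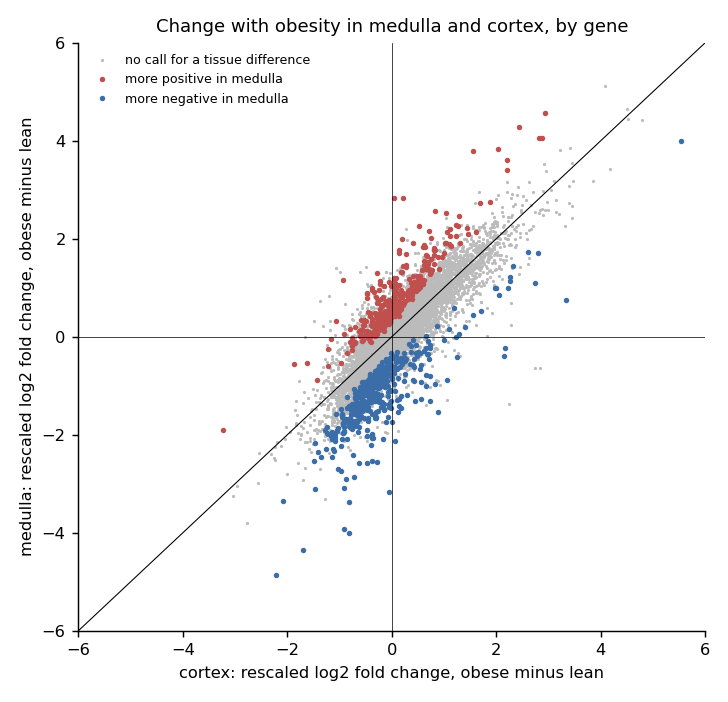
Rescaled log2 fold change of obese against lean vehicle in medulla (y axis) and in cortex (x axis), 1 point per gene, with the diagonal of equal change and the 782 genes whose tissue difference was called on both scales in colour. The genes more negative in medulla (465) lie mostly where the medulla value is below 0.

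The genes called in medulla were followed into the cortex libraries, on rescaled values. Of the 3696 that rose, 3453 were higher and 243 lower in obese than in lean cortex, with a median log2 fold change of 0.47 beside 0.64 in medulla. On the deposited values the medians were 0.79 and 1.00. Of the 1610 that fell, 1572 were lower and 38 higher in obese cortex, with medians of -0.58 and -0.96. On the deposited values 1321 were lower and 289 higher, with medians of -0.23 and -0.58. Over all 13821 genes, 6415 were higher and 7406 lower in obese cortex after rescaling, and 11189 and 2632 as deposited. After rescaling, 1006 of all genes were at least 2-fold higher and 281 at least 2-fold lower in obese cortex. For the 179 genes that rose at least 4-fold in medulla, the median rescaled log2 fold change was 2.29 in medulla and 2.11 in cortex, and 171 of them were at least 2-fold higher in obese cortex. For the 80 genes that fell at least 4-fold, the medians were -2.32 and -1.20, and 48 were at least 2-fold lower in cortex. The tissue difference was called for 16.2% of these rises and 50% of these falls, beside 5.66% of all genes. The genes were chosen for their medulla values, which makes the medulla medians larger than a repeat would give, and the 2 sets were not tested against each other.

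The genes with a more negative change in medulla differed from all tested genes in their lean levels. Of the 465, 169 (36.3%) had a lean level at least 2-fold higher in medulla than in cortex, beside 9.46% of all genes tested, and 6 (1.29%) had one at most 0.5 times that of cortex. Of the 317 with a more positive change in medulla, 79 (24.9%) were at least 2-fold lower in lean medulla than in lean cortex, beside 4.03% of all genes. The median lean levels of the more negative set were 23.7 FPKM in medulla and 14.3 in cortex. Lean libraries enter both the lean ratio and the tissue difference, so these are not independent measurements. How the border between medulla and cortex was cut in lean and obese kidneys is not given in the sources used here, and its part was not tested.

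The IDs named for this comparison are the 2 largest differences in each direction under the same conditions. They were chosen from these libraries for a called difference, so their p-values, also in refits, are a description and no support. ENSRNOG00000008979 was at 5.71, 6.49, 5.08, 6.21 and 7.97 FPKM in lean medulla replicates 1, 3, 5, 6 and 7. It was at 46.8, 73.1, 39.2, 67.6 and 108 FPKM in obese medulla replicates 3, 4, 5, 6 and 7. All obese medulla libraries lay above all lean ones. In cortex it was at 5.74 ± 1.48 FPKM in lean and 7.65 ± 1.86 in obese rats (SD, n = 5 each), with overlapping values. The change was larger in medulla by 2.85 ± 0.33 on the log2 scale (SE, limma adjusted p = 7.42e-05). With MK-8722 at 10 mpk this ID varied from 19.5 to 183 FPKM between medulla libraries.

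ENSRNOG00000010254 was listed at 0 in lean medulla replicates 1, 3, 6 and 7 and at 0.0726 FPKM in replicate 5. In obese medulla it was at 4.2, 4.53, 3.8, 3.33 and 3.50 FPKM in replicates 3, 4, 5, 6 and 7. Every lean library was at or near 0, and the obese ones lay close together. In obese cortex it was at 0.110 ± 0.107 FPKM and at most 0.287 (n = 5). The tissue difference was 2.85 ± 0.21 on the log2(FPKM + 0.5) scale (SE, limma), or 4.36 with a pseudocount of 0.1. The ID passed the filter only through the obese medulla libraries and was chosen for this difference, so its p-value is no support. It stayed at 3.40 ± 0.716 FPKM with enalapril, 5.11 ± 1.3 with MK-8722 at 1 mpk and 2.31 ± 1.13 with MK-8722 at 10 mpk in medulla (SD, n = 5 each).

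ENSRNOG00000057928 was at 36.9, 40.2, 31.5, 28.4 and 32.7 FPKM in lean medulla replicates 1, 3, 5, 6 and 7, and at 3.37, 1.34, 5.24, 1.58 and 1.15 FPKM in obese replicates 3, 4, 5, 6 and 7. Lean cortex had 1.33 ± 1.96 and obese cortex 0.429 ± 0.504 FPKM (SD, n = 5 each), so the ID was low in cortex to begin with. From the lean cortex values, no fall over 1.35 could appear in cortex on the log2(FPKM + 0.5) scale, and the log2 fold change in medulla was -3.67. The tissue difference was -3.05 ± 0.73 (SE, limma adjusted p = 0.0184). With a pseudocount of 0.1 it was -2.94 (adjusted p = 0.171), and in the 29 other settings the adjusted p was 0.0412 at most.

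ENSRNOG00000056476 fell in medulla from 9.78 ± 1.77 to 0.940 ± 0.431 FPKM (SD, n = 5), with lean libraries from 7.61 to 12.1 and obese ones from 0.439 to 1.48. In cortex it was at 0.294 ± 0.422 in lean and 0.291 ± 0.211 FPKM in obese rats. The tissue difference was -2.95 ± 0.37 (SE, limma adjusted p = 8.36e-05). No fall over 0.54 could appear in cortex from that lean level, and the log2 fold change in medulla was -2.87. A limit of this kind also applied to the 2 largest falls of the medulla. ENSRNOG00000019481 had a log2 fold change of -1.97 in cortex where at most 2.39 could be lost, and ENSRNOG00000002602 one of -1.47 where at most 1.91 could be lost, from lean cortex means of 2.64 ± 2.22 and 1.73 ± 1.51 FPKM (SD, n = 5 each). Neither limit was reached, but both were smaller than the falls in medulla. The part of the scale in their tissue differences, -2.64 and -2.59, was not tested. Of all 465 genes with a more negative change in medulla, 65 had a lean cortex mean under 1 FPKM, where little room for a fall was left. That share was close to the one among all genes tested, 1804 of 13821. The rises of ENSRNOG00000048402 and ENSRNOG00000013973 were not shown to differ, with tissue differences of 1.17 ± 1.02 and 0.23 ± 0.43 (SE, limma adjusted p = 0.589 and 0.828).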

How the data were processed

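Stranded total RNA libraries were made after ribosomal RNA removal, per the labels' protocols. The authors deposited FPKM values per Ensembl gene ID. For aligner, counting tool and build, no name is given in the sources used here. Columns were matched to samples by the library number in the description. FPKM are not counts, so limma 3.58.1 in R 4.3.3 was run on log2(FPKM + 0.5) with a trend and robust moderation, two-sided, on the 10 medulla vehicle libraries, or on 20 with cortex for the interaction. Fold changes on this scale understate changes of low genes. Median-ratio factors used tested genes above 0 in all libraries of the fit. Absolute depth is unknown. Relative depth came from genes detected in 5 to 22 of the 50 libraries, where 95.1% of 60405 values in 5088 genes lay within 0.1 reads of a whole number. The size of 1 read was fitted for each gene to these same values, so that share is no independent check. Relative depth limits the precision of low genes. Positions of left-out libraries used the factors of all 10. The script was tested on simulated data in which few genes changed, in balanced directions. That test does not cover a change as broad as the one in these data.

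The named IDs follow a written rule: largest rises and falls passing on both scales, with separate groups, the higher of which averaged 2 FPKM or more. Without symbols it was limited to 2 IDs per direction, and gene lists by symbol, including cell type markers, could not be applied. The comparison and rule were chosen with earlier results of these data known. Alternatives were 3 other scalings, a pseudocount of 0.1, no filter, the replicate number as a block, relative depth as a term, all libraries of the tissues in the fit and leaving out each library. The rescaled fit with depth and the replicate block within genotype were added after seeing the data.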

Additional observations from a re-analysis of the deposited data

Results flagged for a closer look

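For 6 of the 8 IDs named, the interaction of tissue with genotype had an adjusted p under 0.05 in limma. Of all 13821 genes tested, 845 did on the deposited values. The differences, medulla minus cortex on the log2 scale, were -2.64 for ENSRNOG00000019481, -2.59 for ENSRNOG00000002602, 2.85 for ENSRNOG00000008979, 2.85 for ENSRNOG00000010254, -3.05 for ENSRNOG00000057928 and -2.95 for ENSRNOG00000056476. The last 4 were named because of this difference, so their calls were fixed by that choice. For the 4 IDs that fell, lean cortex levels were too near the pseudocount for a fall of the size seen in medulla to appear, and ENSRNOG00000010254 passed the filter only through the obese medulla libraries.

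Of 68 groups of 5 values checked, 8 had 1 library apart from the other 4. The cutoff flags about 1 group in 20 by chance only for independent, normally distributed values. These groups share libraries and some hold mostly values of 0, so the count cannot be set against that rate. Lean cortex replicate 2 was apart for ENSRNOG00000057928 (4.77 FPKM), ENSRNOG00000056476 (1.04 FPKM) and ENSRNOG00000010254 (0.0654 FPKM, the others listed at 0). It also had the highest lean cortex values of the 2 IDs that fell most in medulla, ENSRNOG00000019481 (6.15 FPKM) and ENSRNOG00000002602 (4.14 FPKM). Without this library the tissue difference was -3.56 for ENSRNOG00000057928 and -3.22 for ENSRNOG00000056476, and 786 genes had a tissue difference called on both scales.

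Medulla replicate 3 given enalapril was apart for ENSRNOG00000013973 (92.0 FPKM) and ENSRNOG00000008979 (62.9 FPKM), nearer to obese vehicle than the other 4 libraries. Medulla replicate 2 given MK-8722 at 1 mpk was apart for ENSRNOG00000057928 (3.61 FPKM). In lean medulla, replicate 5 was the only library with ENSRNOG00000010254 above 0 (0.0726 FPKM), and replicate 1 had the lowest relative depth (0.992).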

How the results depend on the processing

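With relative depth as a term the medulla counts were 1525 on deposited values (1431 higher, 94 lower), 777 on rescaled values and 640 on both scales. The median standard error rose from 0.11 to 0.28, while the median log2 fold change was 0.30 on the deposited values. Depth and genotype do not overlap in these libraries, so their parts cannot be told apart. The other settings kept the total counts within 1.5 times, but not the counts by direction. On deposited values 7843 genes were higher and 1610 lower, and after median-ratio rescaling 3696 and 3774. Leaving out each library gave 8573 to 9250 calls on deposited values, 6565 to 7351 on rescaled values and 4730 to 5216 on both scales. Of the 5306 genes, 4221 (79.6%) held in the same direction on both scales whichever library was left out. The filter was applied again in each fit. The 422 genes that reached 1 FPKM in all 5 obese and no lean library failed it without any of these 5, so losses to the filter count as not held.

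The tissue difference had 605 to 1094 calls on deposited values, 841 to 1478 on rescaled values and 557 to 1037 on both scales when each library was left out. With the filter applied again in each fit, 469 of 782 genes (60%) held throughout. With the replicate block the tissue difference had 462, 653 and 414 calls. A replicate block within genotype, added after the results were known, gave 464, 513 and 388. The cause was not tested. Replicate numbers 3, 5, 6 and 7 recur in lean and obese medulla, and same-numbered libraries did not deviate together, with r of -0.04 to 0.06 across genes and 0 of 4 correlating best with their own number. Of 7 same-numbered pairs of cortex and medulla in 1 genotype, with r of 0.00042 to 0.253, 2 were over 0.1 and 4 correlated best with their own number, a hint from the data at most. The labels do not say that a number marks 1 animal. The block gave 8264 medulla calls on deposited values.

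No named ID changed direction in 186 refits, and 4 refits lost a call, as given in the report. Leaving out an obese medulla library removed ENSRNOG00000048402 and ENSRNOG00000010254 from some fits, because the filter then failed. Absolute depth is unknown, and low relative depth limits genes near 1 FPKM most.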
